A study of Mus musculus with 8 samples.

Results

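The 8 genes described here govern how a cell takes up, stores and exports iron. They are *Tfrc*, *Slc11a2*, *Fth1*, *Ftl1*, *Ncoa4*, *Slc40a1*, *Aco1* and *Ireb2*, chosen by symbol among 30406 genes listed for every library because nitric oxide is known to act on the iron regulatory proteins. They were followed in single-cell RNA libraries of pancreatic islets from male C57BL6/J mice (C57BL/6 in the labels) of 12 to 16 weeks, for which no modified allele is given. For each of 2 replicates the islets of 10 mice were combined and then split into 4 cultures kept for 18 h. The first was left untreated, the second received cytokines (IL-1β at 10 U/mL plus IFN-γ at 150 U/mL), the third the same cytokines in the presence of NMMA at 2 mM, and the last NMMA only. NMMA (NG-monomethyl-L-arginine) inhibits nitric oxide synthases, so cytokines compared with cytokines and NMMA asks which part of a change needs the activity of these enzymes. Each condition has 2 libraries, each from its own pool of mice, and the libraries of a replicate share a pool.

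Iron enters cells bound to transferrin, through the transferrin receptor (*Tfrc*), and is moved out of the endosome by DMT1 (*Slc11a2*). It is stored in ferritin, a shell of heavy (*Fth1*) and light (*Ftl1*) chains that NCOA4 (*Ncoa4*) delivers to lysosomes for breakdown, and it leaves through ferroportin (*Slc40a1*). The iron regulatory proteins IRP1 (*Aco1*, which with an iron-sulfur cluster is the cytosolic aconitase) and IRP2 (*Ireb2*) bind RNA hairpins called iron responsive elements. In the 3′ UTR, as in *Tfrc* and *Slc11a2*, such binding stabilises the mRNA, and in the 5′ UTR, as in ferritin and ferroportin, it blocks translation. Nitric oxide is known to remove the cluster of IRP1. The libraries count mRNA, so an effect on translation is outside what they measure.

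The hairpins are shown because they separate the uptake mRNAs from the storage and export mRNAs of this set. The motif, an unpaired C, a stem of 5 bases, the loop CAGTGN and then the other side of the stem with at least 4 pairs, was searched in the sense strand of the UTRs of coding transcripts in GENCODE release M21 (build GRCm38). It was found in the 5′ UTR of 206 of 21901 coding genes (0.941%) and in the 3′ UTR of 872 (3.98%). Among the 8 genes it was in the 5′ UTR of *Fth1* (chr19:9982732-9982761, plus strand, 4 of 5 coding transcripts), *Ftl1* (chr7:45459778-45459807, minus strand, 1 of 2) and *Slc40a1* (chr1:45925464-45925493, minus strand, 1 of 4). It was in the 3′ UTR of *Slc11a2* (chr15:100395152-100395181, minus strand, 1 of 6 coding transcripts, with 4 of 5 stem pairs) and at 4 places in the 3′ UTR of *Tfrc* (plus strand, 1 of 3 coding transcripts). Each site lies within 1 exon and is written 5′ to 3′ as DNA with the loop in capitals:
Fth1: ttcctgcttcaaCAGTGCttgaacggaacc
Ftl1: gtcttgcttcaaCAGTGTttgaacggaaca
Slc40a1: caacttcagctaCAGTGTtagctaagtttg
Slc11a2: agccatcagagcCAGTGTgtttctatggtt
Tfrc chr16:32631219-32631248: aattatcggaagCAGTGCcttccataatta
Tfrc chr16:32631598-32631627: cattatcgggagCAGTGTcttccataatgc
Tfrc chr16:32631663-32631692: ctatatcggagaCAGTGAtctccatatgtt
Tfrc chr16:32631710-32631739: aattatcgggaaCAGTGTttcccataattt

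These letters were not found in the UTRs of *Aco1* (chr4:40143081-40198338, plus strand), *Ireb2* (chr9:54863789-54912530, plus strand) or *Ncoa4* (chr14:32159865-32179855, plus strand). The libraries count molecules near the 3′ end and sum all transcripts of a gene, so the *Slc11a2* transcript with the hairpin was not counted apart from those without it.

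CPM below is the usual count unit scaled to library size: the UMIs of a gene, or the summed UMIs of a marker list, relative to all UMIs of its class in that library. A library held between 26549922 and 50731370 unique molecular identifiers (UMIs, each a captured RNA molecule), and 10876 of 17426 barcodes passed the filters on cells. No pair of libraries shared more than 2 of these barcodes. Clusters of cells were named from marker genes, and the UMIs of each gene were summed per library over 6327 β-cells (444 to 1659 in a library), 670 α-cells (48 to 108), 348 δ-cells (13 to 86) and 324 macrophages (28 to 72), while 2483 cells (22.8%) stayed unnamed and out of the sums. This loss was uneven, from 33 of 1323 kept cells in the replicate 1 cytokine library to 866 of 1798 in the replicate 2 untreated library. Its part in the results was not tested. All 10 β-cell, 8 α-cell and 11 macrophage markers were found in their own class in every library, and 4 of 5 δ-cell markers. The δ-cell class also held the PP-cell hormone genes *Ppy* and *Pyy* at a summed level of 23889.8 to 123047 CPM, beside 25465 to 96049.7 for its own markers, so its values are for that mixed class. The β-cell markers in it summed to 37162 to 59513 CPM. *Nos2*, the inducible nitric oxide synthase, had 0 or 1 UMI in the β-cells of each library without cytokines, 5047 and 2409 with cytokines, and 8635 and 5692 with cytokines and NMMA.

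Levels of single genes are CPM after TMM scaling, which sets libraries to a common level over most genes. In β-cells, 18 h of cytokines raised the uptake mRNAs *Tfrc* and *Slc11a2* and the ferritin mRNAs *Fth1* and *Ftl1*, and lowered ferroportin (*Slc40a1*), *Ncoa4* and both iron regulatory protein mRNAs. Cytokines with NMMA gave lower *Tfrc*, *Slc40a1*, *Slc11a2* and *Fth1* and higher *Ireb2* than cytokines alone; against untreated, *Slc11a2* and *Fth1* were still higher and *Slc40a1* lower. All 8 mRNAs passed the threshold of 0.05 for the edgeR adjusted p in cytokines against untreated, where 46.2% of the 12769 genes tested passed it, 23.8% higher and 22.4% lower. The members' count of 8 is to be read against that background. Cytokine and untreated libraries did not overlap for any of the 8, as was so for 36.7% of genes in each direction.

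**Figure D1:**
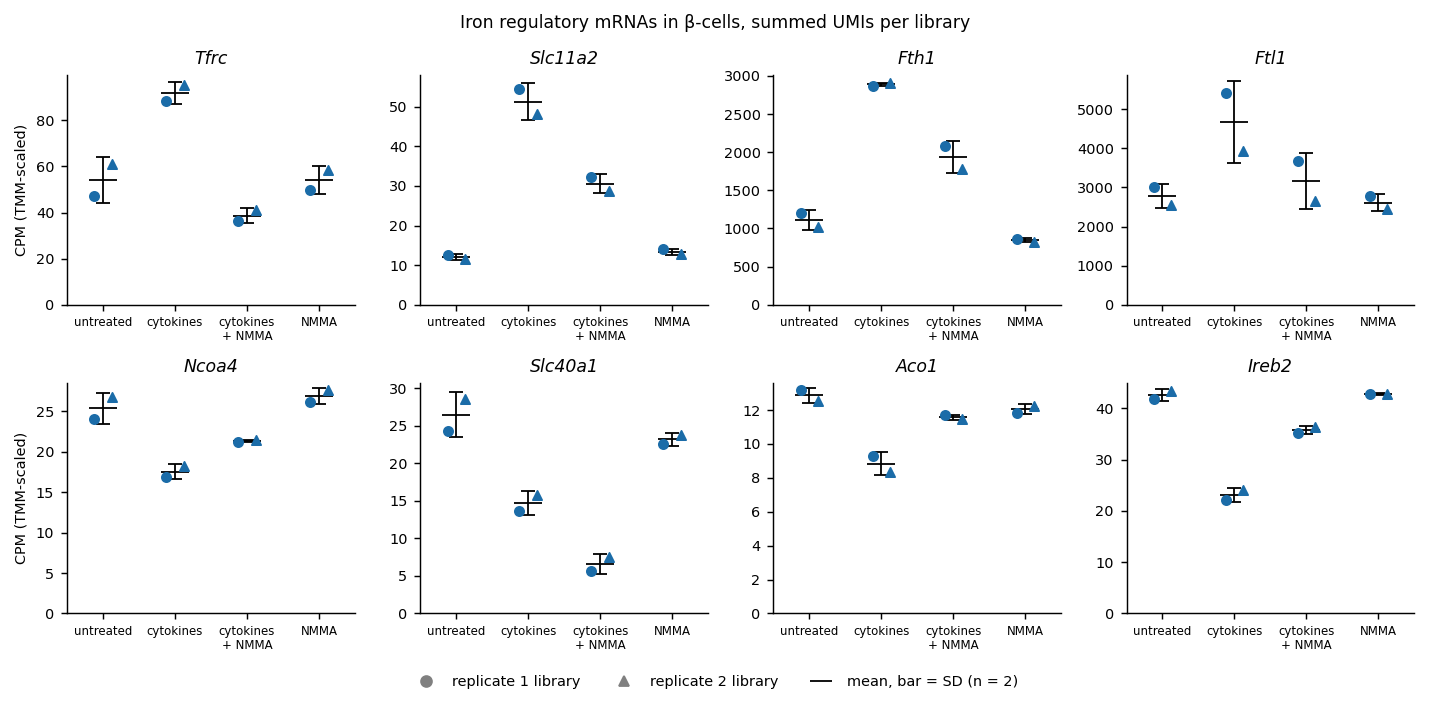
Level of each of the 8 mRNAs in β-cells, in CPM on axes that start at 0, for the 4 conditions; circles are replicate 1 libraries, triangles replicate 2 libraries, and bars the mean ± SD (n = 2). *Tfrc* and *Slc40a1* are lowest with cytokines and NMMA, at 36.3 and 41.1 CPM and at 5.71 and 7.59 CPM, while *Slc11a2* and *Fth1* lie there between untreated and cytokines.

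Transferrin receptor mRNA (*Tfrc*) in β-cells was 47.2 and 61.1 CPM untreated (replicates 1 and 2), 88.6 and 95.4 with cytokines, 36.3 and 41.1 with cytokines and NMMA, and 49.8 and 58.4 with NMMA alone. The cytokine libraries were the highest and the libraries with cytokines and NMMA the lowest, with no overlap between these and the others. The log2 change was 0.77 (SE 0.16, edgeR adjusted p = 0.00397) for cytokines against untreated and 1.25 (SE 0.16, edgeR adjusted p = 0.00275) for cytokines against cytokines with NMMA. Both calls held when any 1 library was left out. Cytokines with NMMA against untreated gave -0.48 (SE 0.16, edgeR adjusted p = 0.056), which missed the threshold, and -0.47 (SE 0.10, edgeR adjusted p = 0.000909) when the pool of mice was a block in the fit. The level with cytokines and NMMA was 0.77 and 0.67 times that of the untreated library of the same pool.

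DMT1 mRNA (*Slc11a2*) had the largest change of the 8 in β-cells, from 12.7 and 11.5 CPM untreated to 54.6 and 48.1 with cytokines. It was 32.3 and 28.9 CPM with cytokines and NMMA and 14.0 and 12.8 with NMMA alone. The cytokine libraries were 4.31 and 4.18 times their untreated library of the same pool, and the libraries with cytokines and NMMA 2.55 and 2.51 times. No library with cytokines overlapped a library without. On the log2 scale the change was 2.08 (SE 0.14, edgeR adjusted p = 1.28e-05) for cytokines, 1.34 (SE 0.14, edgeR adjusted p = 0.00016) for cytokines with NMMA, both against untreated, and 0.75 (SE 0.13, edgeR adjusted p = 0.00724) between these conditions. The last of these missed the threshold without the replicate 1 cytokine library (0.65, edgeR adjusted p = 0.0554) and without the replicate 2 library with cytokines and NMMA (0.67, edgeR adjusted p = 0.0537). A gene on the other strand, *Gm5475*, overlaps *Slc11a2*.

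Ferritin heavy chain mRNA (*Fth1*) in β-cells was 1198 and 1013 CPM untreated, 2874 and 2906 with cytokines, 2079 and 1785 with cytokines and NMMA, and 862 and 824 with NMMA alone. The 4 conditions did not overlap. The fitted log2 change was 1.39 (SE 0.14, edgeR adjusted p = 0.000114) for cytokines and 0.81 (SE 0.14, edgeR adjusted p = 0.00358) for cytokines with NMMA, both against untreated. Between cytokines and cytokines with NMMA it was 0.58 (SE 0.14, edgeR adjusted p = 0.0227). Its call was lost in several settings: the edgeR adjusted p ranged from 0.0546 to 0.14 when 1 of the 4 libraries compared was left out, and with the sums scaled by total UMIs the change was 0.37 (edgeR adjusted p = 0.0777). NMMA alone gave -0.39 (SE 0.14, edgeR adjusted p = 0.592), and with the pool as a block -0.39 (SE 0.09, edgeR adjusted p = 0.0198).

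Ferritin light chain mRNA (*Ftl1*) was the most abundant of the 8 in β-cells, at 2998 and 2554 CPM untreated, 5414 and 3934 with cytokines, 3679 and 2656 with cytokines and NMMA, and 2773 and 2452 with NMMA alone. The 2 cytokine libraries lie far apart, and both are above every other library. The log2 change for cytokines against untreated was 0.75 (SE 0.20, edgeR adjusted p = 0.015). It was 0.50 (edgeR adjusted p = 0.128) without the replicate 1 cytokine library and 0.63 (edgeR adjusted p = 0.0982) without the replicate 2 untreated library. Cytokines against cytokines with NMMA gave 0.56 (SE 0.20, edgeR adjusted p = 0.084), and with the pool as a block 0.56 (SE 0.09, edgeR adjusted p = 7.37e-05), and the cytokine library was 1.47 and 1.48 times the library with NMMA in the pools. The ratio of *Fth1* to *Ftl1* UMIs in β-cells was 0.400 and 0.396 untreated, 0.531 and 0.739 with cytokines, 0.565 and 0.672 with cytokines and NMMA, and 0.311 and 0.336 with NMMA alone.

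Macrophage markers moved with the conditions in the β-cell sums, and ferritin mRNA is far more abundant in macrophages. The summed macrophage markers in β-cells were 48.4 to 72.5 CPM untreated, without TMM scaling as for all marker sums, 70.2 to 125 with cytokines, 93.3 to 191 with cytokines and NMMA and 38.9 to 45.8 with NMMA alone, with 7 to 11 of 11 markers found. At the macrophages' own ratio of *Fth1* to these markers in the same library they would account for 9.89 to 31.3% of β-cell *Fth1* UMIs and 2.10 to 6.00% of *Ftl1* UMIs. Less that amount, *Fth1* was 946 and 863 CPM untreated, 2291 and 2565 with cytokines, 1428 and 1609 with cytokines and NMMA, and 708 and 703 with NMMA alone, in the same order of conditions. Their part in the result beyond this was not tested. *Ftl1* is overlapped by *Gm22133* on its own strand and *Gm10252* on the other. *Ftl1-ps1*, a processed copy of *Ftl1* in the gene list that could share reads with it, had 320 to 1858 UMIs in the β-cells of a library against 32216 to 141229 for *Ftl1*. No UMI was counted for the other *Fth*-like genes listed, *Fthl17a* to *Fthl17f*, in the 4 classes.

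*Ncoa4*, the ferritin receptor for lysosomal breakdown, was 24 and 26.7 CPM untreated, 16.9 and 18.2 with cytokines, 21.2 and 21.4 with cytokines and NMMA, and 26.2 and 27.6 with NMMA alone. The cytokine libraries were the lowest, and the libraries with NMMA beside the cytokines lay between them and the rest. In log2 units the fit gave -0.53 (SE 0.12, edgeR adjusted p = 0.00712) for cytokines against untreated. Without the replicate 2 untreated library it was -0.46 (edgeR adjusted p = 0.0509). Cytokines against cytokines with NMMA gave -0.28 (SE 0.12, edgeR adjusted p = 0.14), and with the pool as a block -0.29 (SE 0.11, edgeR adjusted p = 0.0427).

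Ferroportin mRNA (*Slc40a1*), the iron exporter, was 24.3 and 28.6 CPM in untreated β-cells, 13.6 and 15.9 with cytokines, 5.71 and 7.59 with cytokines and NMMA, and 22.6 and 23.8 with NMMA alone. Every library with cytokines was below every library without, and those with NMMA beside the cytokines were the lowest. The level with cytokines was 0.56 and 0.55 times that of the untreated library of the same pool, and with cytokines and NMMA 0.23 and 0.27 times. The log2 change was -0.85 (SE 0.17, edgeR adjusted p = 0.00318) for cytokines and -2.00 (SE 0.18, edgeR adjusted p = 7.05e-05) for cytokines with NMMA, both against untreated. Cytokines were higher than cytokines with NMMA by a log2 of 1.16 (SE 0.18, edgeR adjusted p = 0.00461). These 3 calls held when any 1 library was left out. *Slc40a1* is the only one of the 8 genes for which both comparisons were called and the level with cytokines alone lay between untreated and cytokines with NMMA. Macrophage markers moved up with the cytokines in β-cells, and at the macrophages' ratio they would account for 0.281 to 2.65% of *Slc40a1* UMIs.

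The mRNA of IRP2 (*Ireb2*) was 41.8 and 43.5 CPM untreated, 22.2 and 24 with cytokines, 35.2 and 36.3 with cytokines and NMMA, and 42.9 and 42.7 with NMMA alone. The cytokine libraries were the lowest by a wide gap, and NMMA brought the level back to within 0.84 and 0.83 times the untreated library of the pool. On the log2 scale the change was -0.89 (SE 0.11, edgeR adjusted p = 0.000348) against untreated and -0.63 (SE 0.11, edgeR adjusted p = 0.00805) against cytokines with NMMA. The second was -0.57 (edgeR adjusted p = 0.0608) without the replicate 1 cytokine library. Cytokines with NMMA against untreated gave -0.26 (SE 0.11, edgeR adjusted p = 0.14), and with the pool as a block -0.26 (SE 0.10, edgeR adjusted p = 0.0415).

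*Aco1*, which encodes IRP1, was the lowest of the 8 in untreated β-cells apart from *Slc11a2*, at 13.2 and 12.5 CPM. It was 9.32 and 8.36 CPM with cytokines, 11.7 and 11.5 with cytokines and NMMA, and 11.9 and 12.3 with NMMA alone. The cytokine libraries were again the lowest, with no overlap. The log2 change against untreated was -0.54 (SE 0.14, edgeR adjusted p = 0.0121). It was -0.50 (edgeR adjusted p = 0.0733) without the replicate 1 untreated library, -0.46 (edgeR adjusted p = 0.0655) without the replicate 2 cytokine library and -0.53 with DESeq2 (adjusted p = 0.054). Cytokines against cytokines with NMMA gave -0.39 (SE 0.14, edgeR adjusted p = 0.0868), and with the pool as a block -0.38 (SE 0.13, edgeR adjusted p = 0.0311).

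In cytokines against cytokines with NMMA, 5 of the 8 mRNAs were called in β-cells, *Tfrc*, *Slc11a2*, *Fth1* and *Slc40a1* higher and *Ireb2* lower, where 19.4% of all genes were called, 8.98% higher and 10.4% lower. The libraries of these conditions did not overlap for any of the 8, 5 higher and 3 lower, as was so for 28.6% of genes higher and 31.7% lower. The count was 8 with the pool as a block and 2 without the replicate 1 cytokine library, where *Tfrc* and *Slc40a1* were left. In cytokines with NMMA against untreated 3 were called, *Slc11a2* and *Fth1* higher and *Slc40a1* lower, against 22.7% of all genes (12.9% higher and 9.77% lower), and 5 with the pool as a block. The shares of all genes are from the fit with all libraries and no block, so counts under other settings stand without one. In that comparison *Slc11a2* and *Fth1* did not overlap on the higher side (30.8% of genes), nor did 5 members on the lower side (30.8%). The median log2 change of the 8 was 0.11 for cytokines against untreated, 0.57 against cytokines with NMMA and -0.20 for cytokines with NMMA against untreated, beside medians of all genes of 0.00, -0.01 and -0.00. In each of these comparisons the 8 mRNAs moved the same way in both pools.

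Scaling by total UMIs in place of TMM moved the median log2 change of all genes to -0.22 in β-cells for cytokines against untreated and against cytokines with NMMA. The split of all calls then went from 3036 higher and 2864 lower to 1984 and 3944, and from 1147 and 1331 to 407 and 2374. All 8 members kept their direction and call in the first comparison. The cluster of β-cells led by the heat shock gene *Hspa1a* held 2.41 to 8.07% of β-cells in replicate 1 libraries and 17.8 to 25.5% in replicate 2 libraries. Without it, an alternative chosen after seeing the data, 8, 5 and 4 members were called in the 3 comparisons with cytokines, the fourth of the last being *Tfrc* (-0.53, edgeR adjusted p = 0.0298). The shares of all genes called without that cluster are not given, so these counts have no background beside them. The other β-cell clusters each held mainly cells with or without cytokines, led by *Mafa* or *Glp1r* without and by *Il4i1*, *Lcn2* or *Cfb* with, and all were summed.

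NMMA alone changed none of the 8 mRNAs in β-cells past the threshold, where 0% of all genes passed it with edgeR (928 of 12769 had an unadjusted p under 0.05) and DESeq2 called 17 genes, none of them a member. NMMA and untreated libraries did not overlap for 1 member on the higher side, *Slc11a2* (18.6% of genes), and for 3 on the lower side, *Fth1*, *Slc40a1* and *Aco1* (18.9%). With the pool as a block 1 member was called, *Fth1*, and the share of all genes called with the block is not given. The same held in the other classes, where edgeR called 0% of genes (338 of 9867 at an unadjusted p under 0.05 in α-cells, 184 of 8738 in δ-cells and 144 of 5156 in macrophages), and DESeq2 called 0 genes in each.

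The share of β-cells with at least 1 UMI of a member, after each cell was thinned to 10000 UMIs (11 to 93 shallower cells of a library left out), is given for 4 members. *Slc11a2* was found in 11.4 to 12.5% of untreated β-cells, 32.4 to 37.5% with cytokines and 24.6 to 27.4% with cytokines and NMMA. *Slc40a1* went from 21.5 to 26.8% untreated to 11.3 to 11.5% and 6.10 to 7.0%, and *Tfrc* from 36.3 to 41.1% to 47.4 to 50.8% and 29.5 to 32.8%. With NMMA alone the *Tfrc* share was 36.5 to 48.0%, which overlapped that with cytokines. *Fth1* (99.6 to 100%) and *Ftl1* (100%) were found in nearly every β-cell of all 8 libraries, so their shares carry nothing on the level. *Ireb2* was found in 33.5 to 33.9% untreated, 17.5 to 18.3% with cytokines and 25.8 to 30.3% with cytokines and NMMA. Without thinning the shares of *Slc11a2* were 23.0 to 25.6%, 56.4 to 66.3% and 47.3 to 55.7% at full depth. No class that should lack these mRNAs was at hand to measure free RNA, whose part in the shares was not tested.

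α-cells, the glucagon cells, shared the rise of the uptake and ferritin mRNAs. With cytokines 4 of 8 members were called against untreated, all higher, where 20.4% of 9867 genes were called, 12.2% higher and 8.23% lower. The same 4 did not overlap on the higher side (29.5% of genes), nor did *Aco1* on the lower (31.2%). *Slc11a2* was 18.4 and 15.2 CPM untreated, 52.5 and 44.6 with cytokines, 41.5 and 35.3 with cytokines and NMMA, and 15.9 and 14.9 with NMMA alone. As in β-cells, every library with cytokines was above every library without. The fitted log2 change was 1.52 (SE 0.27, edgeR adjusted p = 0.000755) for cytokines and 1.2 (SE 0.26, edgeR adjusted p = 0.00491) for cytokines with NMMA, both against untreated. The second was the only member called in that comparison (7.46% of all genes, 5.56% higher), in which 4 members did not overlap on the higher side (24.9% of genes) and 2 on the lower (24.6%). It was 1.09 (edgeR adjusted p = 0.0596) without the replicate 1 library with cytokines and NMMA, 1.06 (edgeR adjusted p = 0.104) without the replicate 2 untreated library, and 1.2 with DESeq2 (adjusted p = 0.0798). Between cytokines and cytokines with NMMA *Slc11a2* gave 0.32 (SE 0.25, edgeR adjusted p = 0.457) in α-cells. The β-cell markers in the α-cell sums were higher with cytokines than untreated, at 15042 to 30989 CPM untreated, 55111 to 56611 with cytokines, 27252 to 62184 with cytokines and NMMA and 11347 to 86174 with NMMA alone. The hormone genes of PP cells summed to 27661 to 91545 CPM over the 8 α-cell sums, and the part of either in the α-cell results was not tested.

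The light chain *Ftl1* moved more than the heavy chain in α-cells. It was 1219 and 1349 CPM untreated, 3626 and 3751 with cytokines, 1628 and 1642 with cytokines and NMMA, and 1059 and 1666 with NMMA alone, so that the cytokine libraries stood apart and the others lay together. In log2 units the fit gave 1.52 (SE 0.23, edgeR adjusted p = 0.000185) against untreated and 1.17 (SE 0.23, edgeR adjusted p = 0.00397) against cytokines with NMMA, the only member called there (10.4% of all genes, 5.52% higher and 4.93% lower). In that comparison 4 members did not overlap on the higher side (25.1% of genes) and 2 on the lower (29.8%). The latter was 1.16 (edgeR adjusted p = 0.0512) without the replicate 1 library with cytokines and NMMA. *Fth1* was 969.6 and 913 CPM untreated, 1374 and 2060.2 with cytokines, 1128 and 976 with cytokines and NMMA, and 762 and 897 with NMMA alone. Its cytokine libraries were the highest but differed from each other by more than the other pairs. The log2 change of *Fth1* was 0.87 (SE 0.23, edgeR adjusted p = 0.0122) against untreated. At the macrophages' own ratio their markers would account for 11 to 20.9% of α-cell *Fth1* UMIs, and their part in the change was not tested.

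α-cell *Tfrc* was 35.5 and 31.9 CPM untreated, 44.3 and 101 with cytokines, 37.1 and 46.7 with cytokines and NMMA, and 65.5 and 60.6 with NMMA alone. The cytokine value rests on the replicate 2 library, and both NMMA libraries were above the other cytokine library. The log2 change was 1.18 (SE 0.30, edgeR adjusted p = 0.011) against untreated and 0.41 (edgeR adjusted p = 0.414) without the replicate 2 cytokine library. With 1 or the other untreated library left out it was 1.26 (edgeR adjusted p = 0.0579) and 1.10 (edgeR adjusted p = 0.0963) for *Tfrc*, and 0.92 (edgeR adjusted p = 0.0759) and 0.82 (edgeR adjusted p = 0.105) for *Fth1*, which was 0.56 (edgeR adjusted p = 0.122) without the replicate 2 cytokine library. Scaled by total UMIs, which moved the median of all genes to -0.52 and the split of calls from 1199 higher and 812 lower to 569 and 2511, *Tfrc* (0.71, edgeR adjusted p = 0.128) and *Fth1* (0.38, edgeR adjusted p = 0.204) missed the threshold and *Aco1* passed it (-1.45, edgeR adjusted p = 0.0107). With the pool as a block, cytokines against cytokines with NMMA called *Tfrc* (0.86, SE 0.24, edgeR adjusted p = 0.00634) and *Fth1* (0.69, SE 0.18, edgeR adjusted p = 0.00251) in addition, and cytokines with NMMA against untreated called *Slc40a1* (-1.03, SE 0.29, edgeR adjusted p = 0.0207).

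*Slc40a1* in α-cells was 49.1 CPM in both untreated libraries, 18.0 and 50.2 with cytokines, 15.3 and 32.7 with cytokines and NMMA, and 58.1 and 46.3 with NMMA alone. The pools disagreed on cytokines: the library was far below untreated in replicate 1 and level with it in replicate 2. On the log2 scale the change was -0.40 (SE 0.41, edgeR adjusted p = 0.552) for cytokines and -1.02 (SE 0.40, edgeR adjusted p = 0.197) for cytokines with NMMA, both against untreated. *Aco1* (17.7 and 18.2 CPM untreated, 6.56 and 10.5 with cytokines) gave -0.98 (SE 0.38, edgeR adjusted p = 0.0787) on 4 to 37 UMIs in a library. *Ireb2* and *Ncoa4* overlapped between untreated and cytokines, at 24.5 and 38.3 against 22.9 and 29.99 CPM and at 19.1 and 29.0 against 27.9 and 24.3 CPM. α-cells with and without cytokines again fell into different clusters, the former led by *Gcg* and *Hamp* or, with NMMA, by *Spp1* and *Hamp*.

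In the δ-cell class 3 members were called in cytokines against untreated, all higher, where 6.56% of 8738 genes were called, 4.80% higher and 1.76% lower. Without overlap against untreated were 24.4% of genes higher with cytokines, and 25.6% higher and 24.4% lower with cytokines and NMMA. With 13 cells in each cytokine library the counts are low. *Tfrc* was 47.6 and 35.8 CPM untreated (47 and 23 UMIs), 148 and 124 with cytokines (27 and 29 UMIs), 21.5 and 11.6 with cytokines and NMMA (21 and 9 UMIs), and 74.4 and 55.8 with NMMA alone (41 and 45 UMIs). The 4 conditions did not overlap, and as in β-cells the libraries with cytokines and NMMA were the lowest. The fitted log2 change was 1.67 (SE 0.32, edgeR adjusted p = 0.00406) for cytokines against untreated, -1.31 (SE 0.35, edgeR adjusted p = 0.0301) for cytokines with NMMA against untreated, and 2.98 (SE 0.36, edgeR adjusted p = 0.00188) between these. The last is the largest difference of a member in any class, it held when any 1 library was left out, and 0.263% of genes (0.0687% higher) were called in that comparison, in which 5 members and 18.8% of genes did not overlap on the higher side. The first was 1.43 (edgeR adjusted p = 0.0712) without the replicate 2 untreated library. The second was -1.06 (edgeR adjusted p = 0.358) and -1.47 (edgeR adjusted p = 0.0648) without the replicate 1 or replicate 2 untreated library, and -0.96 (edgeR adjusted p = 0.303) without the replicate 2 library with cytokines and NMMA. It was -1.34 (adjusted p = 0.163) with DESeq2 and -1.30 (edgeR adjusted p = 0.0531) scaled by total UMIs.

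*Slc11a2* in the δ-cell class was 13.2 and 14.0 CPM untreated, 77.0 and 34.1 with cytokines, 44.0 and 50.3 with cytokines and NMMA, and 16.3 and 13.7 with NMMA alone, on 8 to 43 UMIs. Libraries with cytokines did not overlap those without. In log2 units the fit gave 1.97 (SE 0.46, edgeR adjusted p = 0.0167) for cytokines and 1.78 (SE 0.38, edgeR adjusted p = 0.00655) for cytokines with NMMA, both against untreated, in the latter beside *Tfrc* as the only members called (7.29% of all genes). The former was 1.21 (edgeR adjusted p = 0.28) without the replicate 1 cytokine library, 1.90 (edgeR adjusted p = 0.125) and 1.94 (edgeR adjusted p = 0.0805) without 1 or the other untreated library, 1.98 with DESeq2 (adjusted p = 0.0543) and 1.23 (edgeR adjusted p = 0.276) with cells clustered at resolution 0.5. The latter was 1.74 (edgeR adjusted p = 0.117) without the replicate 1 untreated library, 1.70 (edgeR adjusted p = 0.0593) without the replicate 2 library with cytokines and NMMA, and 1.78 with DESeq2 (adjusted p = 0.0654).

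*Fth1* in the δ-cell class was 1228 and 1195 CPM untreated, 2820.1 and 2101 with cytokines, 1125 and 1179.5 with cytokines and NMMA, and 832 and 1007 with NMMA alone. The cytokine libraries stood above all others. The log2 change was 1.02 (SE 0.24, edgeR adjusted p = 0.0183) against untreated, with an edgeR adjusted p of 0.0569 to 0.18 when an untreated library, the replicate 1 cytokine library (0.68) or a library with cytokines and NMMA was left out, and 0.70 (edgeR adjusted p = 0.161) with cells clustered at resolution 0.5. Against cytokines with NMMA it was 1.09 (SE 0.24, edgeR adjusted p = 0.0762), and with the pool as a block 1.09 (SE 0.16, edgeR adjusted p = 8.76e-05). *Slc40a1*, with 3 to 24 UMIs in a library, went from 9.12 and 29.6 CPM untreated to 27.5 and 21.3 with cytokines and 3.07 and 11.6 with cytokines and NMMA, and its pools moved in opposite directions with cytokines alone. *Ftl1*, *Ncoa4*, *Aco1* and *Ireb2* passed the threshold in no comparison of this class. The class was held by a different cluster with cytokines, again led by *Sst*, and its macrophage markers summed to 99.4 to 101 CPM untreated and 90.6 to 163 with cytokines. At the macrophages' own ratio they would account for 15.9 to 34.6% of its *Fth1* UMIs. The PP hormone genes in the class were at 85205 to 123047 CPM untreated, 23889.8 to 43001 with cytokines, 46012 to 60262 with cytokines and NMMA and 95714 to 97219 with NMMA alone. Its δ-cell markers were at 57914 to 80907, 25465 to 34536, 37117 to 37561 and 50115 to 96049.7 CPM in the same order. Both sums were lower with cytokines than in untreated libraries without overlap. The β-cell markers in the class were at 37162 to 45380.5 CPM untreated and 50761 to 51739 with cytokines, higher without overlap. They were at 47029 to 53407.5 CPM with cytokines and NMMA and 39339 to 59513 with NMMA alone. In the cytokine libraries they exceeded both the δ-cell markers and the PP hormone genes. The part of these marker sums in the results of the class was not tested.

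Macrophages had far more ferritin mRNA than the endocrine cells. *Fth1* made up 5.53 to 10.0% of all macrophage UMIs and *Ftl1* 2.05 to 3.52%, against 0.0849 to 0.260% and 0.267 to 0.483% in β-cells. *Fth1* UMIs outnumbered those of *Ftl1* by 2.01 to 4.04 times in macrophages, while in β-cells the ratio was 0.311 to 0.739, in α-cells 0.379 to 0.795 and in the δ-cell class 0.444 to 0.837. The ranges of the ratio in macrophages and endocrine cells did not overlap.

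**Figure D2:**
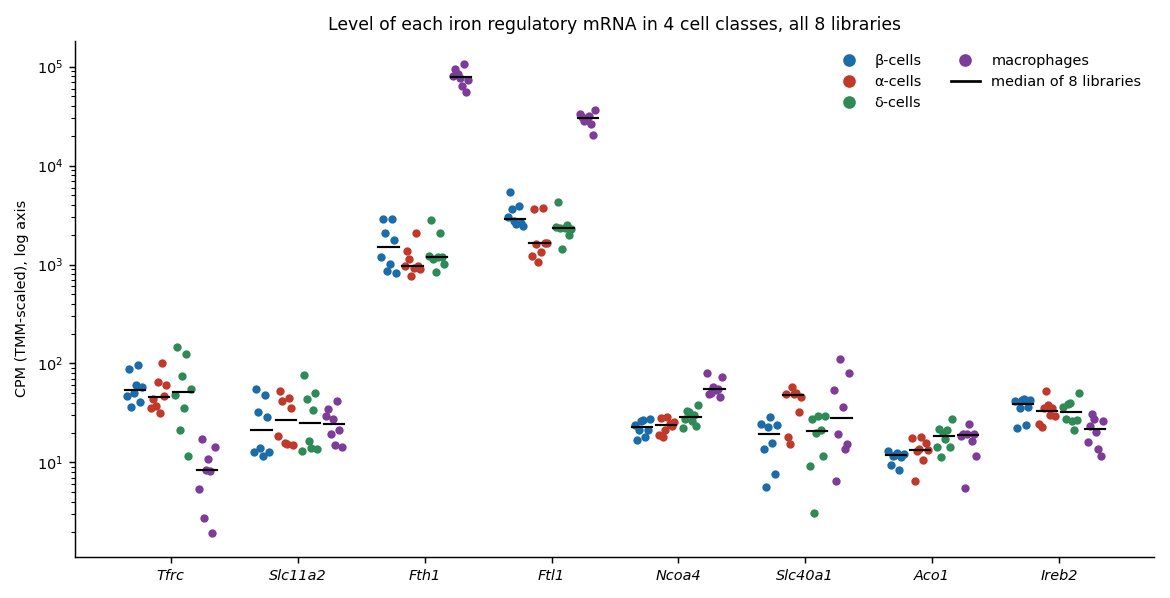
Level of the 8 mRNAs in all 8 libraries of each cell class, in CPM on a log axis; points are libraries and lines their medians. *Fth1* and *Ftl1* in macrophages lie far above every endocrine library, and *Tfrc* in macrophages (1.92 to 17.2 CPM) lies below every endocrine median.

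In untreated macrophages *Slc40a1* was 53.4 and 36.5 CPM (20 and 27 UMIs), and it was 6.43 and 13.8 with cytokines (3 and 5 UMIs), 19.4 and 15.4 with cytokines and NMMA (7 and 8 UMIs), and 111 and 81.0 with NMMA alone (40 and 28 UMIs). The 4 conditions did not overlap, with cytokines lowest and NMMA alone highest. The log2 change for cytokines against untreated was -2.13 (SE 0.49, edgeR adjusted p = 0.0207), the only member called in that comparison, where 6 of 8 members and 5156 genes had enough UMIs to be tested and 4.54% of genes were called. It was -1.84 (edgeR adjusted p = 0.122) without the replicate 1 untreated library, -1.62 (edgeR adjusted p = 0.237) without the replicate 1 cytokine library, and -2.16 with DESeq2 (adjusted p = 0.143). Cytokines with NMMA against untreated gave -1.33 (SE 0.44, edgeR adjusted p = 0.0916), and with the pool as a block -1.33 (SE 0.42, edgeR adjusted p = 0.0439). β-cell markers summed to 18569 to 55101 CPM in macrophages without cytokines and to 2289 to 6760.2 with them. Cytokine-treated macrophages were mostly in a cluster led by *C1qb* and the others in a cluster led by *Lyz2*. The part of either in the *Slc40a1* result was not tested.

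*Fth1* in macrophages was 80682 and 64367 CPM untreated and 95663 and 105775 with cytokines, and the fit gave 0.47 on the log2 scale (SE 0.21, edgeR adjusted p = 0.296). *Ftl1* was 33471 and 31865 CPM untreated and 30764 and 26213 with cytokines, and the fit gave -0.20 on the log2 scale (SE 0.21, edgeR adjusted p = 0.739). The groups did not overlap for either gene, as was so for 22.7% of genes on the higher side and 22.5% on the lower. Both genes missed the threshold. *Slc11a2* (14.5 to 41.4 CPM), *Ncoa4* (46.1 to 80.1) and *Ireb2* (11.5 to 30.5) were not called in macrophages, and *Tfrc* (1 to 8 UMIs in a library) and *Aco1* (2 to 18 UMIs) were not tested. *Slc11a2* was 34.3 to 41.4 CPM with cytokines (15 to 16 UMIs) and 14.9 to 29.4 untreated (11 UMIs in each library). These groups did not overlap (22.7% of genes on the higher side), and the log2 change was 0.86 (SE 0.47, edgeR adjusted p = 0.421). Against cytokines with NMMA it was 0.87 (SE 0.48, edgeR adjusted p = 0.824). With edgeR, 0 of 6 members were called for cytokines against cytokines with NMMA (0.116% of all genes, with 334 at an unadjusted p under 0.05, and 3 genes with DESeq2) and 0 of 6 for cytokines with NMMA against untreated (6.4% of all genes).

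**Figure D3:**
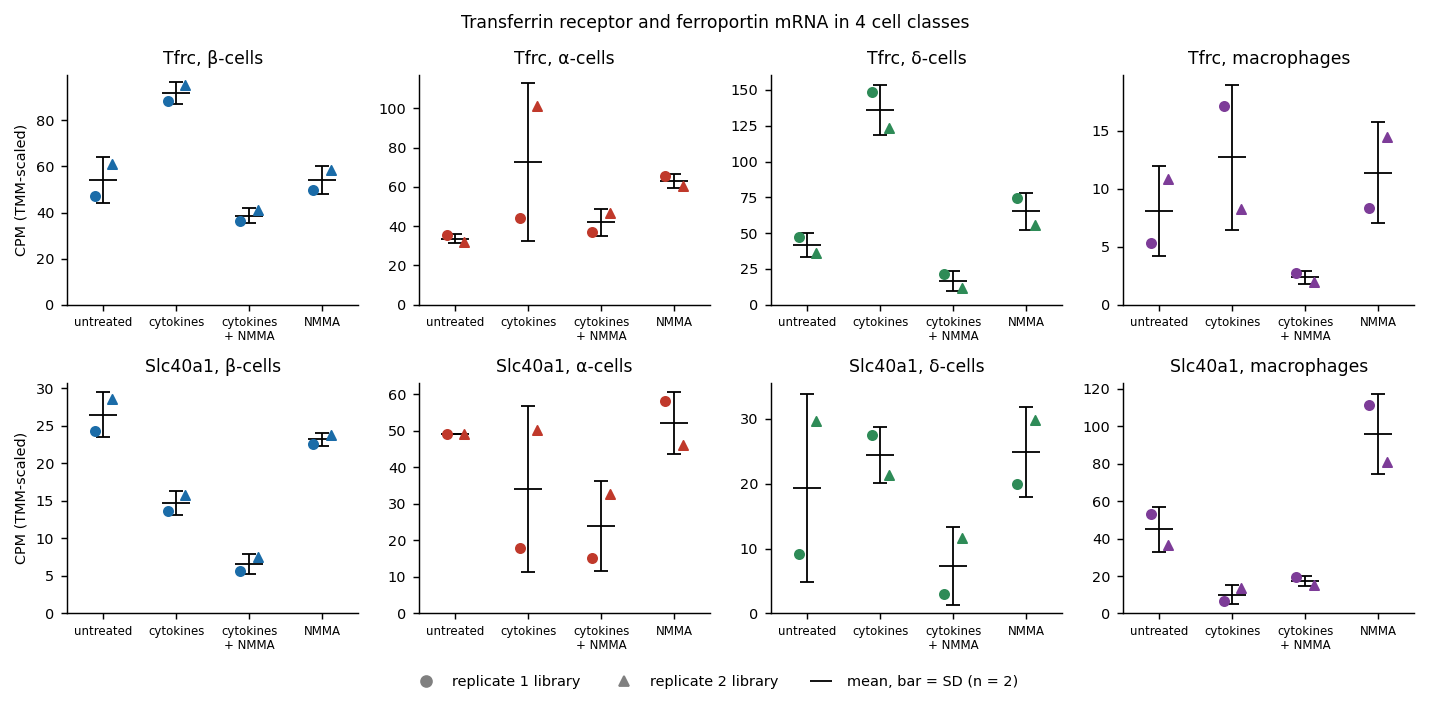
Levels of *Tfrc* (upper row) and *Slc40a1* (lower row) in the 4 cell classes, in CPM on axes that start at 0 and differ between panels; circles are replicate 1, triangles replicate 2, bars the mean ± SD (n = 2). *Tfrc* is highest with cytokines and lowest with cytokines and NMMA in β-cells and the δ-cell class, and the 2 cytokine libraries of α-cells (44.3 and 101 CPM) lie apart. *Slc40a1* is lowest with cytokines and NMMA in β-cells and lowest with cytokines in macrophages.

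Whether a change differs between classes was tested as an interaction on the 16 sums of a pair of classes. For cytokines against untreated 2 members differed between β-cells and macrophages, where 4.37% of 12804 genes did: *Fth1* changed by a log2 of 0.68 (SE 0.18, edgeR adjusted p = 0.00944) more in β-cells, and *Ftl1* by 0.71 (SE 0.19, edgeR adjusted p = 0.0104) more. The difference was 0.63 (edgeR adjusted p = 0.211) for *Fth1* and 0.61 (edgeR adjusted p = 0.296) for *Ftl1* without the replicate 1 cytokine libraries, and 0.81 (edgeR adjusted p = 0.11) for *Ftl1* without the replicate 2 untreated libraries. The fall of *Slc40a1* differed by 1.06 (SE 0.62, edgeR adjusted p = 0.48). Between β-cells and α-cells no member was called (3.56% of 12752 genes were), and the largest difference was that of *Ftl1*, which rose less in β-cells by a log2 of 0.82 (-0.82, SE 0.26, edgeR adjusted p = 0.0672). For cytokines against cytokines with NMMA no member was called between β-cells and macrophages (0.867% of genes) or between β-cells and α-cells (1.79%).

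**Figure D4:**
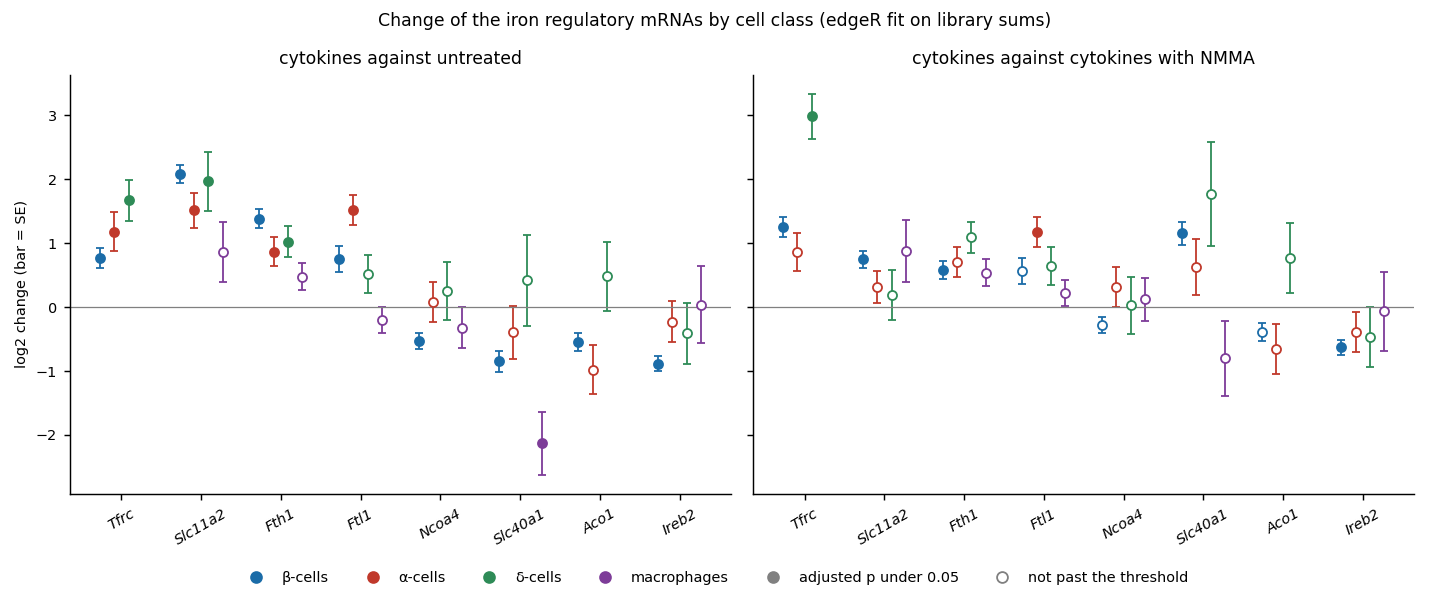
log2 change of the 8 mRNAs with cytokines, against untreated (left) and against cytokines with NMMA (right), by cell class; bars are the SE, filled points passed the threshold of 0.05 for the edgeR adjusted p. *Slc11a2* and *Fth1* are filled in β-, α- and δ-cells on the left, *Tfrc* reaches 2.98 in δ-cells on the right, and *Tfrc* and *Aco1* of macrophages were not tested and are not drawn.

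The order of the classes in untreated libraries differed between the genes, and is given without a test because the classes were formed from the same counts. *Tfrc* was highest in β-cells (54.1 ± 9.84 CPM, SD, n = 2) and the δ-cell class (41.7 ± 8.33), which overlapped, then α-cells (33.7 ± 2.51), then macrophages (8.07 ± 3.87). *Ireb2* was highest in β-cells (42.7 ± 1.13), with the δ-cell class (31.5 ± 7.06) and α-cells (31.4 ± 9.72) overlapping and macrophages lowest (18.1 ± 3.01). *Slc40a1* was highest in α-cells (49.1) and macrophages (44.9 ± 12), which overlapped, above β-cells (26.5 ± 3.01) and the δ-cell class (19.4 ± 14.5), which overlapped as well. *Slc11a2* (12.1 ± 0.811 in β-cells) and *Aco1* (12.9 ± 0.456) were lowest in β-cells and highest in macrophages, at 22.1 ± 10.3 and 21.5 ± 3.99, the former overlapping α-cells. The macrophage values rest on 11 UMIs of *Slc11a2* in each untreated library and 7 to 18 of *Aco1*. Those of the δ-cell class rest on 9 to 13 and 11 to 14 UMIs. *Ncoa4* was 67.1 ± 18.4 CPM in macrophages and 24 to 25.4 in the endocrine classes, which overlapped.

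The 59 other genes of iron and haem handling in a wider list give the setting of these changes. In β-cells 47 of them were tested, and in cytokines against untreated 13 were higher and 10 lower (48.9%, against 46.2% of all genes), with a median log2 change of 0.03. In cytokines against cytokines with NMMA 2 were higher and 5 lower (14.9% against 19.4%), and 20 were called with the pool as a block. Both shares without the block lie near those of all genes, and the count with the block has no such share beside it. By role, with cytokines 2 of 7 tested uptake genes were higher and 2 lower, both tested export genes were higher, 4 of 17 mitochondrial iron-sulfur genes were higher and 3 lower, and 2 of 13 haem genes were higher and 3 lower. Of the genes for storage 1 of 2 was higher, of those for regulation 1 of 3, and the 1 tested hepcidin pathway gene was higher.

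Hepcidin (*Hamp*), the peptide hormone that binds ferroportin and causes its degradation, had the largest rise of the list. It had 15 and 3 UMIs in untreated β-cells, 5119 and 1313 with cytokines, 1495 and 514 with cytokines and NMMA, and 3 and 3 with NMMA alone. All libraries with cytokines were far above all without. Few untreated UMIs make the size of the change uncertain. On the log2 scale the change was 8.71 (SE 0.71, edgeR adjusted p = 0.000364) for cytokines and 7.49 (SE 0.70, edgeR adjusted p = 0.00107) for cytokines with NMMA, both against untreated, and 1.22 (SE 0.46, edgeR adjusted p = 0.127) between them. Heme oxygenase 1 (*Hmox1*), which releases iron from haem, was 48.5 and 38.7 CPM untreated, 554 and 208 with cytokines, 250.0 and 108 with cytokines and NMMA, and 80.0 and 61.4 with NMMA alone. Its level with cytokines differed between the pools and was the higher of the pair with cytokines in each. The fitted log2 change was 3.13 (SE 0.64, edgeR adjusted p = 0.0129) against untreated, lost without the replicate 1 (edgeR adjusted p = 0.0767) or replicate 2 (edgeR adjusted p = 0.0808) untreated library, and 1.09 (SE 0.60, edgeR adjusted p = 0.264) against cytokines with NMMA.

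**Figure D5:**
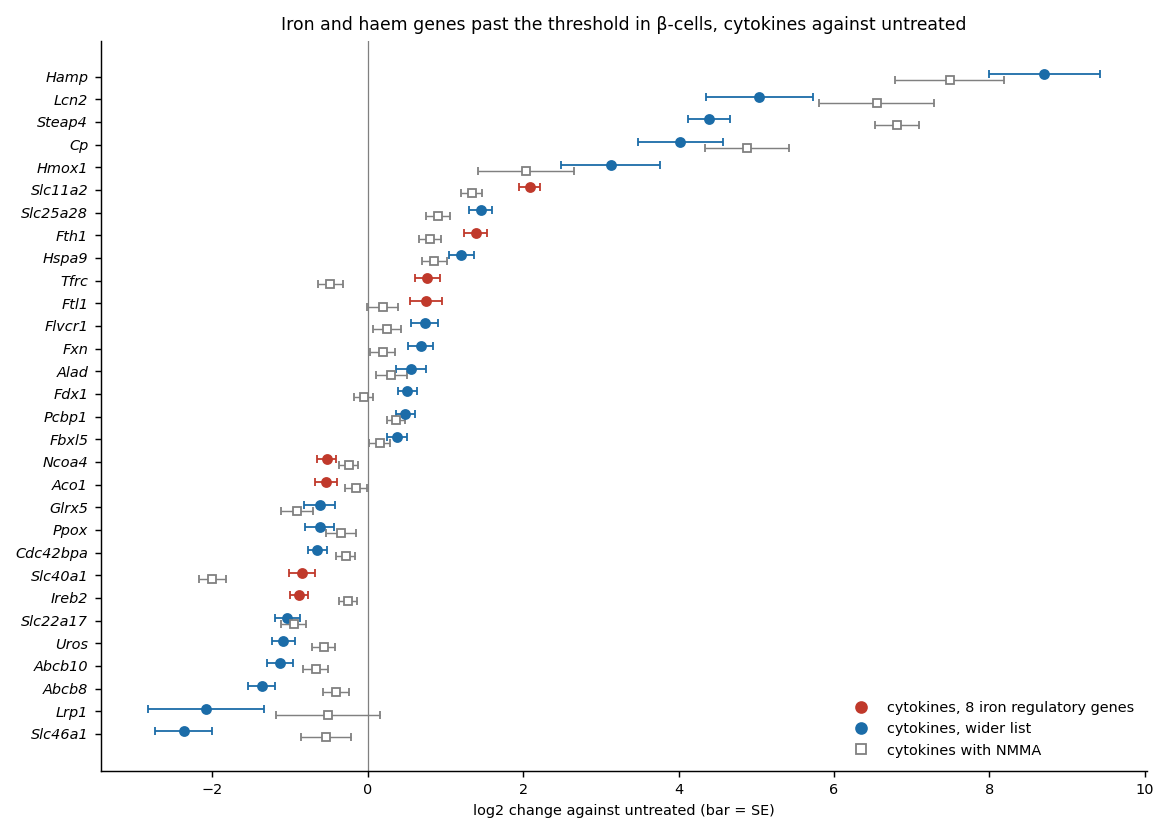
log2 change against untreated in β-cells for the members (red) and the genes of the wider list reported here (blue) that were called in cytokines against untreated, with SE bars; open squares give cytokines with NMMA against untreated. *Hamp* is at 8.71, *Steap4*, *Lcn2* and *Cp* lie further right with NMMA present, and *Tfrc* goes from 0.77 with cytokines to -0.48 with cytokines and NMMA.

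Lipocalin 2 (*Lcn2*), which binds bacterial siderophores, the metalloreductase *Steap4* and the ferroxidase ceruloplasmin (*Cp*) rose with cytokines and were highest with NMMA present. *Steap4* was 0.723 and 0.909 CPM untreated, 17.1 and 16.4 with cytokines and 100.2 and 78.6 with cytokines and NMMA. Its log2 change was 4.39 (SE 0.27, edgeR adjusted p = 1.12e-05) for cytokines against untreated and -2.41 (SE 0.21, edgeR adjusted p = 0.00117) against cytokines with NMMA, so it was higher with the inhibitor. *Lcn2* changed by 5.04 (SE 0.69, edgeR adjusted p = 0.00306) and *Cp* by 4.02 (SE 0.55, edgeR adjusted p = 0.000466) against untreated, and neither was called against cytokines with NMMA (-1.51 and -0.86). *Lcn2*, *Steap4* and *Hmox1* are also among the leading genes of β-cell clusters that hold mostly cytokine-treated cells. The mitochondrial iron importer mitoferrin 2 (*Slc25a28*) rose by 1.45 (SE 0.15, edgeR adjusted p = 0.000114) and was higher with cytokines than with NMMA present by 0.55 (SE 0.15, edgeR adjusted p = 0.0317). The ferredoxin *Fdx1*, an electron donor in iron-sulfur cluster and steroid synthesis, was higher with cytokines than with cytokines and NMMA by 0.56 (SE 0.12, edgeR adjusted p = 0.0146).

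Among the genes that fell, the folate and haem carrier *Slc46a1* changed by -2.37 (SE 0.37, edgeR adjusted p = 0.000922) on 8 to 68 UMIs and the endocytic receptor *Lrp1* by -2.08 (SE 0.74, edgeR adjusted p = 0.0463) on 3 to 47 UMIs. The mitochondrial transporters *Abcb8* and *Abcb10* changed by -1.37 (SE 0.17, edgeR adjusted p = 0.000314) and, for the latter, -1.13 (SE 0.17, edgeR adjusted p = 0.000709). The haem synthesis enzyme *Uros* changed by -1.09 (SE 0.15, edgeR adjusted p = 0.00043) and the lipocalin receptor *Slc22a17* by -1.04 (SE 0.16, edgeR adjusted p = 0.000829). *Slc46a1* (-1.83), *Abcb8* (-0.96), the metalloreductase *Steap2* (-0.73) and *Uros* (-0.52) were lower with cytokines than with cytokines and NMMA. *Lrp1* missed the threshold without the replicate 1 cytokine library (-1.13, edgeR adjusted p = 0.253) and without either untreated library (edgeR adjusted p = 0.0986 and 0.137). None of the 6 genes named against cytokines with NMMA other than *Steap4* (*Slc46a1*, *Abcb8*, *Steap2*, *Uros*, *Slc25a28* and *Fdx1*) passed without the replicate 1 cytokine library, with an edgeR adjusted p of 0.0601 to 0.186.

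*Cdc42bpa*, a kinase gene with a textbook iron responsive element in its mRNA, changed by -0.65 (SE 0.12, edgeR adjusted p = 0.00284) with cytokines. *Fbxl5*, which marks IRP2 for degradation, changed by 0.37 (SE 0.13, edgeR adjusted p = 0.0439) and by 0.15 (edgeR adjusted p = 0.404) when scaled by total UMIs. *Alas2* (0 to 2 UMIs in a library) and *Epas1* (0 to 6) had too few counts to be tested.

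Genes whose log2 CPM over the 8 β-cell libraries ran closest to a member, by Pearson r among genes with a mean log2 CPM of at least 5, differed in number between members. *Tfrc* and *Slc40a1*, which were lowest with cytokines and NMMA, had few such genes: 26 and 23 of about 3055 had r over 0.9, led by *Crebrf* (0.964), *Paip2b* (0.958) and *Fip1l1* (0.958) for *Tfrc* and by *Zfp148* (0.988), *Pofut2* (0.978) and *Gga2* (0.967) for *Slc40a1*. *Slc11a2* had 497, led by *Znrf1* (0.996), *Pi4k2a* (0.996) and *Slc25a28* (0.995). *Fth1* had 330, led by *Psmd8* (0.985), *Tmem128* (0.984) and *Med28* (0.981), and *Ftl1* had 350, led by *Dctn2* (0.994), *Nol12* (0.992) and *Cyth2* (0.989). *Ireb2* had 214, led by *Creb3l2* (0.997), *Ccnd1* (0.996) and *Usp9x* (0.995), *Ncoa4* had 190, led by *Atp2a2* (0.991), *Prnp* (0.990) and *Spock2* (0.987), and *Aco1* had 130, led by *Tmem215* (0.987), *Clcn4* (0.987) and *Abca3* (0.982). The 8 points are the same libraries for every gene and share their depth and scaling, so these values are a description.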

How the data were processed

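Mouse islet cells of 8 libraries, 2 for each of 4 conditions, were analysed from the matrices the authors deposited, which hold raw UMI counts with a row for each gene and a column for each barcode. Per the labels these were made with Cell Ranger and build mm10, and the headers of the matrices give version 3.0.0 (replicate 1) and 6.0.0 (replicate 2). Of the genes listed, the 30406 IDs common to both versions were used. The sample labels and the paper name different versions of the droplet kit. Every value column was mapped to a sample (0 left out).

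Barcodes with at least 200 genes, at most 5500 (replicate 1) or 6500 (replicate 2) genes and at most 10% mitochondrial UMIs were kept, as in the study's methods. Counts scaled to 10000 per cell, 2000 variable genes, 30 principal components and 20 neighbours gave 22 Leiden clusters at resolution 1 (scanpy 1.11.5, leidenalg 0.10.2), and those with the highest score for an islet hormone cell other than the β-cell went through a second round. Each was named for its best-scoring marker list, unless fewer than 3 of them were detected, the score was weak, its cells had few UMIs, markers of another type led it or, in a cluster made in the second round, insulin exceeded its own hormone. The rule on weak scores was not applied to the β-cell list, and the β-cell cluster led by *Il4i1* was named at a score of 0.427. The rule on few UMIs held only where no marker of the type other than a hormone was among the leading genes. Doublets were scored (99 cells, 0.910%) and removed only as an alternative.

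UMI counts were summed per class and library (at least 10 cells) and tested with edgeR 4.0.16 under R 4.3.3 (robust quasi-likelihood F test, filterByExpr and TMM, all conditions in 1 fit, Benjamini-Hochberg over all genes tested, threshold 0.05). DESeq2 1.42.0, other scalings and filters, a replicate block and the leaving out of each library were alternatives. Interactions between classes were fitted with the library as a block. SEs were taken from the log2 change and the F value. The scripts were tested on simulated data.

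The replicate number marks a shared pool of mice, as the study's methods give it. Deviations from the condition mean correlated within a replicate in each of 6 pairs of conditions. The r was 0.603 to 0.701 in β-cells, 0.240 to 0.451 in α-cells, 0.194 to 0.382 in the δ-cell class and 0.336 to 0.460 in macrophages. A block value is therefore printed where it changes a call of a member. For single genes of the wider list none is printed, though the block changed the count of its calls. With 2 replicates, p-values measure the spread between them only. The replicates differ in the pool of mice, the Cell Ranger version and the upper gene limit. These cannot be told apart, in the spread or in the block.

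The members, the wider list and the tests were chosen with earlier results of these data known. All 8 members are named in every class. Of the wider list, the text names at most the 6 genes with the largest change in each direction among those called in β-cells with cytokines against untreated or against cytokines with NMMA, plus *Alas2*, *Epas1*, *Cdc42bpa*, *Hmox1*, *Fbxl5* and *Hamp*. A further gene of the wider list is counted but not reported here. Hairpin sequences and gene positions come from GENCODE release M21 (GRCm38), and stem pairs include G with U.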

Additional observations from a re-analysis of the deposited data

Results flagged for a closer look

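By a test of the difference itself, the change of ferritin mRNA with cytokines was called as different in β-cells and macrophages. Neither call held without the replicate 1 cytokine libraries. In macrophages alone neither gene was called (edgeR adjusted p = 0.296 for *Fth1* and 0.739 for *Ftl1*). With cytokines against untreated the log2 change of *Fth1* was larger in β-cells by 0.68 (SE 0.18, edgeR adjusted p = 0.00944), with both cytokine libraries above both untreated libraries in each class. The log2 change of *Ftl1* was larger in β-cells by 0.71 (SE 0.19, edgeR adjusted p = 0.0104), with both cytokine libraries above both untreated libraries in β-cells and below them in macrophages. Groups here have 2 libraries, so no library could be tested as standing apart.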

How the results depend on the processing

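With 2 pools, a call can rest on 1 library, and counts in the δ-cell class and macrophages are low. No called change of a member reversed: of the 31 called, 12 of 196 values under other settings and 40 of 248 with a library left out missed the threshold. Of the 121 not called, 29 of 646 and 79 of 968 changed sign. The causes were not tested. The counts below stand without the share of all genes called under each setting. They do not separate a change of the members from a general gain or loss of calls. Below, A is cytokines against untreated, B cytokines against cytokines with NMMA, C cytokines with NMMA against untreated, and D NMMA against untreated.

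With the replicate block the members called went from 5 to 8 (B), 3 to 5 (C) and 0 to 1 (D) in β-cells, 1 to 3 (B) and 1 to 2 (C) in α-cells, 1 to 2 (B) in the δ-cell class and 0 to 1 (C) in macrophages, and the wider list in β-cells from 7 to 20 (B). Counts of other comparisons stayed within 1.5 times. Without the filter on low counts, 3 (B) and 2 (C) were called in α-cells, 2 (B) in the δ-cell class, 1 for the difference between β- and α-cells (A), and 13 of the wider list (B). At resolution 0.5, 3 were called in α-cells (B) and 1 in the δ-cell class (A). DESeq2 called 2 (B) and 0 (C) in α-cells, 2 (B) and 0 (C) in the δ-cell class and 0 in macrophages (A). Scaling by total UMIs called 1 in the δ-cell class (C) and 1 for the difference between β- and α-cells (A). Removing doublets moved no count past 1.5 times.

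With each library left out in turn, comparisons A to D called 6 to 8, 2 to 5, 3 to 4 and 0 to 0 members in β-cells, 2 to 4, 0 to 3, 0 to 2 and 0 to 0 in α-cells, 0 to 3, 1 to 2, 0 to 2 and 0 to 0 in the δ-cell class, and 0 to 1, 0 to 0, 0 to 0 and 0 to 0 in macrophages. Differences between classes called 0 to 2 and 0 to 0 against macrophages and 0 to 2 and 0 to 1 against α-cells, and the wider list 15 to 23 and 1 to 8.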

Other observations

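Hepcidin mRNA (*Hamp*) rose in α-cells too, where it was 47.0 and 41.2 CPM untreated, 1636 and 926 with cytokines, 1465 and 1501 with cytokines and NMMA, and 14.8 and 18.7 with NMMA alone. Libraries with cytokines lay far above those without. The log2 change was 4.86 (SE 0.29, edgeR adjusted p = 1.26e-08) for cytokines and 5.07 (SE 0.30, edgeR adjusted p = 3.79e-09) for cytokines with NMMA, both against untreated. It was 3.04 and 14.0 CPM untreated and 313 and 554 with cytokines in the δ-cell class, where it was not called, and had 0 to 3 UMIs in the macrophages of a library. *Hamp* is among the leading genes of α-cell clusters that hold mostly cells with cytokines.

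The metalloreductase *Steap4* was called higher in α-cells (3.55, SE 0.41, edgeR adjusted p = 7.67e-05) and the δ-cell class (5.28, SE 0.70, edgeR adjusted p = 0.000156) with cytokines against untreated. In α-cells it was lower with cytokines than with cytokines and NMMA by a log2 of 2.03 (-2.03, SE 0.31, edgeR adjusted p = 0.00215), as was ceruloplasmin (*Cp*, -2.73, SE 0.50, edgeR adjusted p = 0.0187). Mitoferrin 2 (*Slc25a28*, 1.2, SE 0.27, edgeR adjusted p = 0.00416) rose in α-cells with cytokines. These genes were named after their values in these classes were seen.

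With NMMA alone, *Tfrc* in α-cells was 63.1 ± 3.51 CPM against 33.7 ± 2.51 untreated (SD, n = 2), a log2 difference of 0.90 (SE 0.30, edgeR adjusted p = 1). *Slc40a1* in macrophages was 96.1 ± 21.3 CPM against 44.9 ± 12, a log2 difference of 1.14 (SE 0.35, edgeR adjusted p = 1). Groups did not overlap in either case, as was so for 16.1% of genes in α-cells and 13.7% in macrophages in the same direction, and both were picked after their values were seen.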
